A study of Mus musculus with 8 samples.

Results

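The genes described here were near silent in control mouse oocytes and detected in every Setd1b knockout oocyte. A gene was taken when it had at least 10 raw counts in each of the 4 knockout libraries and at most 10 raw counts summed over the 4 control libraries. Of 37224 genes in the count table, 120 met both limits. Of these, 7 were left out by symbol (Cox4i2, Slc16a4, Zfp600, Rpsa-ps11, Zfp804b, Rpl18 and Rps13-ps1). Symbols starting with Nduf, Cox, Atp5, Rpl, Rps, Mrp, Psm, Slc or Zfp were not considered. The prefixes stand mainly for respiratory chain subunits, ribosomal proteins, the proteasome, solute carriers and zinc finger proteins. Related genes and copies under other symbols stayed in, such as Usmg5 and the Uqcrb copies Gm16089, Gm2962 and Gm5457. Identifiers without a name were not considered either, and none met the limits. The remaining 113 genes are the members. The limits use the counts of both groups, so the difference between knockout and control is how the members were chosen and is given below as a description, without a test.

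The libraries were made from single oocytes of superovulated mice, taken at the MII stage, in which the ovulated egg waits for fertilization. The genotype labelled Setd1bGdf9cKO, in which Setd1b was removed conditionally and whose name refers to the oocyte gene Gdf9, was represented by 4 oocytes, as was the control. Whether the oocytes of a group had separate mothers is not given in the labels, and p-values below therefore describe only how these libraries spread. RNA was amplified from poly(A) tails and sequenced as reads of 75 bases without strand information and without molecular identifiers, so counting intervals cover counting error only.

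Setd1b encodes a methyltransferase that adds methyl groups to lysine 4 of histone H3, a mark of active promoters. Its complex contains a subunit that binds unmethylated CpG dinucleotides, and CpG-rich promoters generally carry the mark. A growing oocyte transcribes and stores the mRNAs that the egg will use, and transcription stops before the egg matures, so an MII oocyte holds what was made and kept during growth.

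The labels were checked on Setd1b, which had 2.97 to 5.06 CPM (counts scaled to library size) in knockout and 9.24 to 12.8 CPM in control libraries (log2 fold change -1.44 ± 0.41 SE, edgeR adjusted p = 0.0221). Total counts were 9488899 to 11313502 in knockout and 11029602 to 13519404 in control libraries. CPM values here are relative to the library total after TMM composition scaling, with factors of 1.07 to 1.22 in knockout and 0.799 to 0.946 in control libraries. All 4 knockout libraries had 10 or more counts for more genes (11190 to 12153) than any control library (9913 to 10714). Its part in the number of members was not tested. All 26 genes of an oocyte marker list were detected, none was a member, and their summed level was 37376 to 45994 CPM in knockout and 67049 to 82742 CPM in control libraries. The single genes did not all follow the sum. Of the 26, 8 were called higher by edgeR and 7 lower, with a median log2 fold change of -0.22. The part of the lower sum in the members' values was not tested. Of 30 markers for the somatic cells of the follicle (cumulus and granulosa), 12 reached 10 counts in any library, none was a member, and 13 were at 0 in all libraries, among them Amh, Inha, Foxl2 and Lhcgr. Their summed level was 429 to 641 CPM in knockout and 737 to 852 CPM in control libraries. That sum mainly follows Bmpr1b (3876 to 6624 counts per library), Esr2 (591 to 1300) and Cyp19a1 (444 to 1371). These genes and Runx2 were called lower by edgeR, and no gene of the list was called higher. Of 25 markers of blood, stroma and oviduct, 6 reached 10 counts, none was a member, 12 were at 0 in all libraries including Ptprc, Lyz2 and Krt8, and the summed level was 38.2 to 60.2 CPM in knockout and 104 to 129 CPM in control libraries. Within that list the macrophage marker Cd68 was called higher by edgeR, with 132, 40, 55 and 147 counts in the knockout and 31, 9, 13 and 2 in the control libraries. It was the only gene called higher among the 5 tested in that list, and Pecam1, Epcam and Kdr were called lower.

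Fewer genes met the same limits with the groups exchanged. Only 4 genes had at least 10 counts in every control library and at most 10 summed over the knockout libraries after the same symbols were left out: B930036N10Rik, Sec14l3, Faxc and the growth factor gene Fgf16. Of the 24373 genes near silent in control, 22680 reached 10 counts in no knockout library, 1008 in 1, 378 in 2, 187 in 3 and 120 in all 4. Of the 22927 genes near silent in knockout, 22406 reached 10 counts in no control library, 429 in 1, 70 in 2, 17 in 3 and 5 in all 4. The members were thus the end of a series in which more genes near silent in the other group appeared in knockout than in control libraries at each step.

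**Figure D1:**
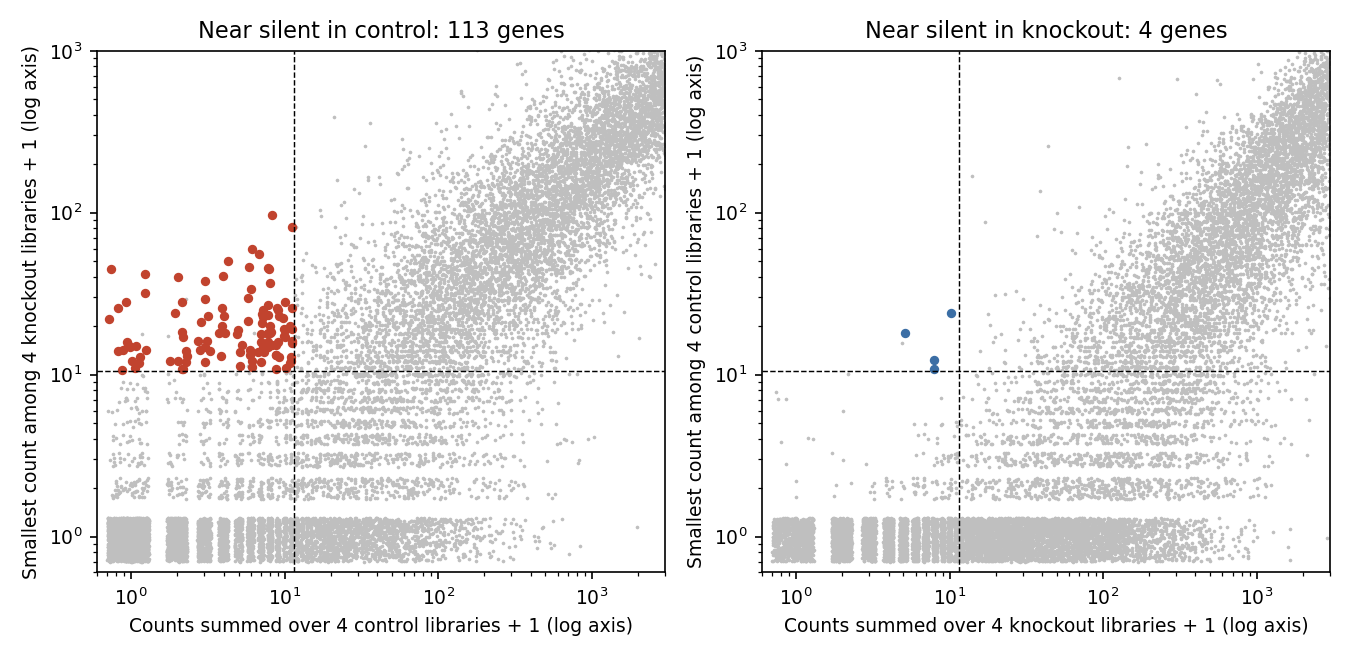
Each grey point is a gene, plotted by its counts summed over the 4 libraries of one genotype (horizontal, plus 1, log axis, slightly scattered) and its smallest count in the 4 libraries of the other genotype (vertical, plus 1, log axis). The upper left field of the left panel holds the 113 members in red, and that of the right panel holds the 4 genes of the exchanged limits in blue; grey points in these fields were left out by symbol, and genes beyond the axis ends are not drawn.

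The rule was applied again without each library in turn, and the genes it then found were looked up in the library left out. Without knockout replicate 1, 136 genes were found, and 83.1% of them had 10 or more counts in that library, against 3.76% of all genes near silent in control. The shares were 81.9% of 138 genes for knockout replicate 2, 67.3% of 168 for replicate 3 and 62.1% of 182 for replicate 4, against 3.24%, 2.31% and 2.20% of near-silent genes. In each case the left-out knockout oocyte held most of the genes that the other 3 had selected, with a median of 27, 30, 16 and 15 counts in replicates 1 to 4. Of the near-silent genes, 18743 had 0 counts in all 8 libraries, while the genes found already had counts in the other knockout oocytes. The distance from the shares of near-silent genes was thus largely set by the choice of genes, and nothing is read from it. Leaving out a control library gave 170, 176, 202 and 175 genes. In the left-out control library 43.5%, 35.2%, 31.2% and 41.1% of these were at 0, and 21.2%, 26.1%, 32.7% and 26.3% had 10 or more counts. A gene near silent in 3 control oocytes was thus not always near silent in the other one, and this was most frequent for control replicate 3.

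**Figure D2:**
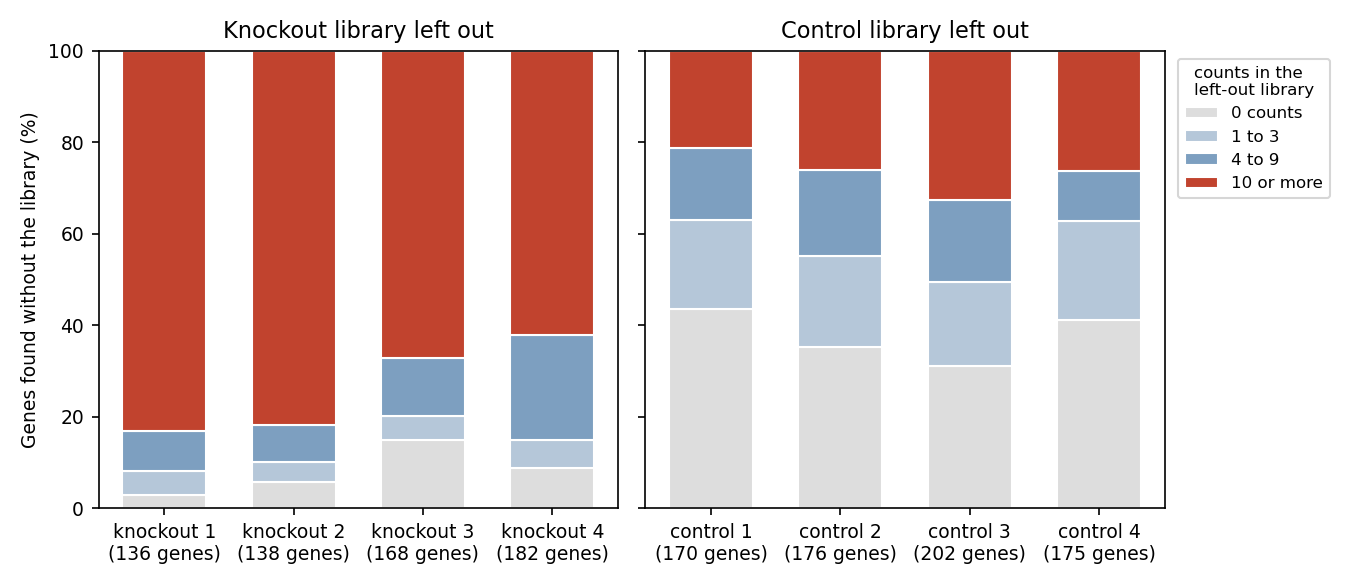
Bars show, for each library left out of the rule, the share of the genes then found (vertical, percent; number of genes under each bar) by their counts in that library. Genes with 10 or more counts made up 62.1% to 83.1% in left-out knockout libraries and 21.2% to 32.7% in left-out control libraries.

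The members were low in abundance. Their mean over the 4 knockout libraries ran from 0.923 to 17.8 CPM with a median of 2.62 CPM, and the median of all 9774 genes with at least 10 counts in every knockout library was 22.4 CPM. A mean of at least 5 CPM was reached by 24 members and of at least 10 CPM by 5. Summed over the members, the knockout oocytes held 5887, 6305, 4107 and 4195 counts and the control oocytes 102, 167, 147 and 94. On the CPM scale the sums were 442, 476, 370 and 391 in knockout and 11.2, 13.4, 12.1 and 9.41 in control libraries, and no single member made up more than 6.11% of the sum in a knockout library. In control, 19 members were at 0 in all libraries, 30 had 1 to 3 counts in all and 64 had 4 to 10. The median ratio of knockout to control over the members was 33.4, with genes at 0 in control entered at their lower bound against 3 control counts over the group.

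In the fit across 11066 genes (edgeR quasi-likelihood test, adjusted p under 0.05), 13.6% of genes were called higher in knockout and 12.2% lower. Of the members, 110 passed the filter on low counts and 99 were called higher. Nothing is read from this count, since the members were chosen on the same contrast. The 11 members tested and not called were 0610040B10Rik, Padi4, Akr7a5, Acy3, Dffb, Sult5a1, D030055H07Rik, Upk1a, Rpusd3, Pdcd5 and Prdx6b, and Tbc1d12, Gsto1 and Dnlz did not pass the filter. The authors' deposited table lists 95 of the 113 members. It holds 2709 of the 37224 genes, 1410 of them higher in knockout, with a DESeq2 adjusted p of at most 0.009996. It rests on the same contrast, so nothing is read from that count either.

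**Figure D3:**
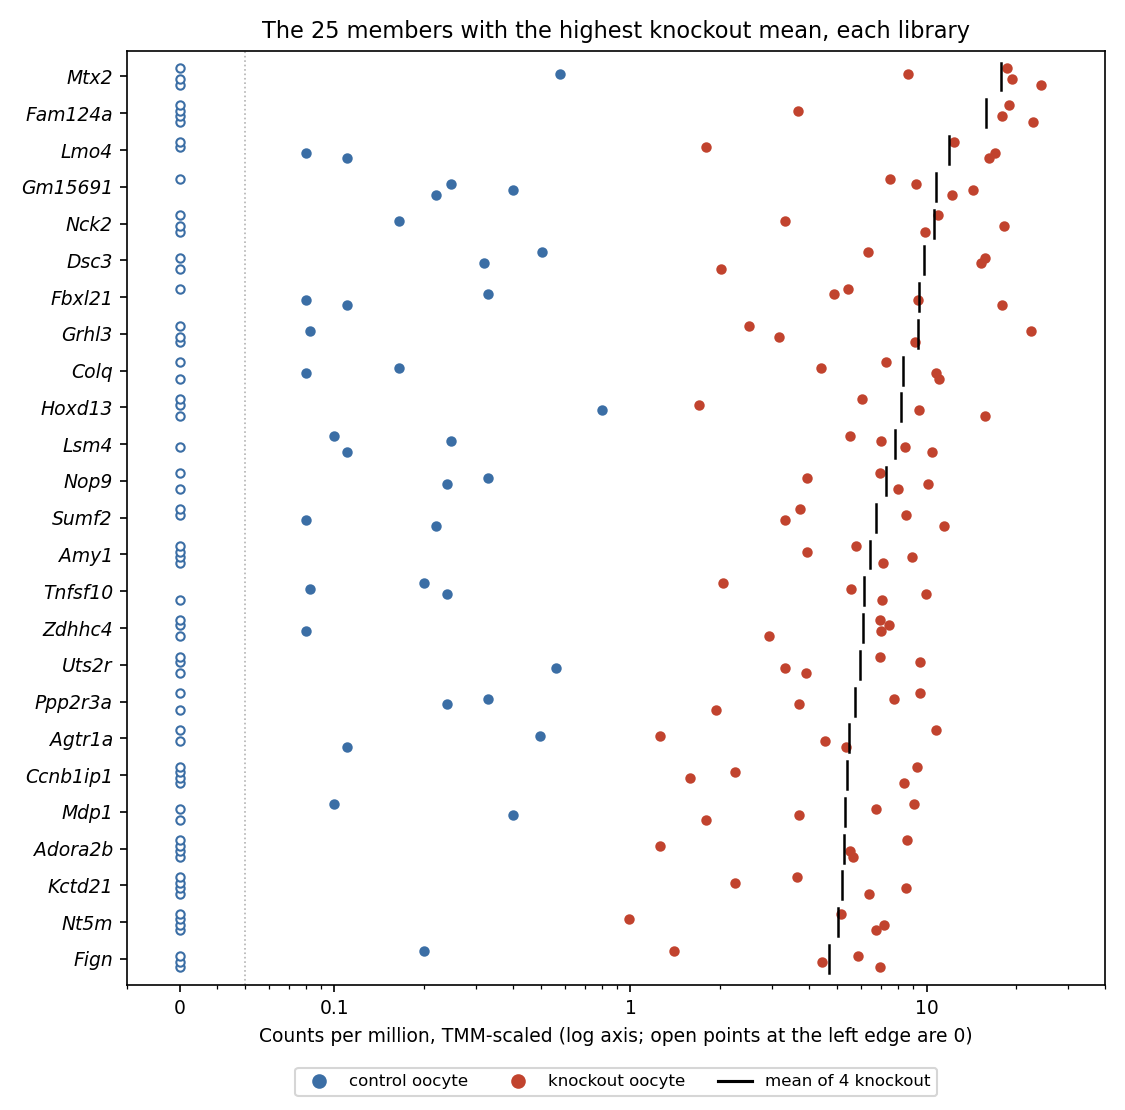
Points show CPM (horizontal, log axis; open points at the left edge are 0) in each control oocyte (blue) and knockout oocyte (red) for the 25 members with the highest knockout mean, and black ticks mark that mean. All knockout values lie to the right of all control values, which the choice of the members fixes, and the knockout values of a gene spread up to 9.52-fold.

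The most abundant member was Mtx2, which encodes metaxin 2, a protein of the outer mitochondrial membrane involved in protein import. Its knockout oocytes, in the order of their replicate numbers, held 325, 257, 96 and 201 counts, and the control oocytes 0, 0, 7 and 0; the same order is used below. The knockout mean was 17.8 ± 6.61 CPM (SD, n = 4), and the pooled ratio to control was 113 (95% counting interval 54.8 to 283). All of its control counts came from replicate 3. Without that library Mtx2 was at 0 in control. The partner gene Mtx1 was also a member, at 2.72 ± 1.27 CPM (SD, n = 4) in knockout, with 44, 22, 47 and 18 counts against 6, 1, 1 and 1. Other genes of this complex were not called by edgeR, namely Samm50 (log2 fold change 0.49 ± 0.74 SE) and Dnajc11 (0.23 ± 0.24). Mtx3 did not pass the filter on low counts. On the scale per transcript length the knockout means were 4.84 RPKM for Mtx2 and 0.759 RPKM for Mtx1.

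Mtx2 lies on chromosome 2 beside the Hoxd cluster, and Hoxd13, a homeobox transcription factor gene known for patterning the digits, hindgut and genital tubercle of the embryo, was a member as well. The genes are 154204 bp apart on the same strand (mm10). Hoxd13 had 209, 125, 19 and 65 counts in knockout and 10 counts in control, all in replicate 2. The 7 Hoxd genes listed between them (Hoxd12, Hoxd11, Hoxd10, Hoxd9, Hoxd8, Hoxd3 and Hoxd1) had no more than 19 counts in any library, and Hoxd10, Hoxd9 and Hoxd3 were at 0 in all 8. Evx2, on the other side of Hoxd13, had 8 counts in knockout replicate 4 and 0 elsewhere. Of 37 Hox genes near silent in control, Hoxd13 was the only member.

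The stretches of 120 bases upstream of the start sites are shown for some abundant members with many CG pairs and some members with few. These examples were picked by hand. Over promoters of 300 bases, the observed to expected CpG ratio of members ran from 0 for Upk1a to 1.23 for Usmg5. Mtx2 had a ratio of 0.801, and Gm15691, also among the most abundant members, had 0.110. The stretches are from RefSeq on GRCm38.p6, written 5′ to 3′, with every CG pair in capitals.
Mtx2, chr2:74825692-74825811, plus strand: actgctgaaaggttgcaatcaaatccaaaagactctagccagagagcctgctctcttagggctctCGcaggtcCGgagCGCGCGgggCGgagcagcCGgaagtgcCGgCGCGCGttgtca
Hoxd13, chr2:74668105-74668224, plus strand: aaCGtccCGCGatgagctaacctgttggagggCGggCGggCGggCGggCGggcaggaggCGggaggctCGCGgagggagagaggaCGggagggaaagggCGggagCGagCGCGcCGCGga
Lmo4, chr3:144205256-144205375, minus strand: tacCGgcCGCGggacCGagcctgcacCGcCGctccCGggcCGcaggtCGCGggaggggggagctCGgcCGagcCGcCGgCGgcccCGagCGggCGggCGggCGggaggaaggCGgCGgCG
Fam124a, chr14:62555617-62555736, plus strand: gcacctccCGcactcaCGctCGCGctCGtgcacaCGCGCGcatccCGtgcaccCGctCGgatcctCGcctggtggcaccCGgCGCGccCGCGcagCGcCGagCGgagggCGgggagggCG
Uts2r, chr11:121160151-121160270, plus strand: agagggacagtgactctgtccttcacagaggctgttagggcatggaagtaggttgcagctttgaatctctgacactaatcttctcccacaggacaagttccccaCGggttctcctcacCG
Cd27, chr6:125237028-125237147, minus strand: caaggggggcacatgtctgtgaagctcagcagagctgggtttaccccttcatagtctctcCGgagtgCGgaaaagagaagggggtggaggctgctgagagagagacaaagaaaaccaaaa
Upk1a, chr7:30612735-30612854, minus strand: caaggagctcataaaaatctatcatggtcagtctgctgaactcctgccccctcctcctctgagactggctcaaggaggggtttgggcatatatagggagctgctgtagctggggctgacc
The stretches of Mtx2, Hoxd13, Lmo4 and Fam124a held 11, 18, 23 and 22 CG pairs, while those of Uts2r, Cd27 and Upk1a held 2, 2 and 0.

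Besides Hoxd13, the transcription and chromatin group held Lmo4, Grhl3, Cited1, Dnttip1, Hdgfl2 and Padi4. Groups by function and by normal tissue were assigned by hand after the members' names were known, from general knowledge of each gene. Lmo4, a LIM-only adaptor of transcription complexes active in epithelia and the nervous system, had 215, 227, 20 and 133 counts in knockout and 1, 1, 0 and 0 in control. The pooled ratio was 268 (95% counting interval 74.0 to 2222). Its knockout level varied most of all members, 9.52-fold between replicates 2 and 3. Grhl3, a grainyhead-like factor of the epidermal barrier and neural tube closure, had the largest ratio among members with a control count, 399 (interval 71.2 to 15791), and a different order of oocytes; the 19 members at 0 in control have only lower bounds and may lie above it. It had 122, 42, 251 and 27 counts, highest where Lmo4 was lowest, with 1 control count. Cited1, a coactivator known from placenta and kidney, had 22, 62, 15 and 27 counts against 2, 7, 0 and 1. Padi4, which converts histone arginine to citrulline and is typical of neutrophils, had 30, 30, 22 and 15 counts against 0, 1, 0 and 7.

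Mitochondrial proteins made up 11 members. Next to the metaxins these were the nucleotidase Nt5m, the medium-chain acyl-CoA synthetase Acsm4, the proline synthesis enzyme Pycr1, the magnesium channel Mrs2, the processing peptidase subunit Pmpca, the tyrosyl-tRNA synthetase Yars2, the ATP synthase associated Usmg5, the pseudouridine synthase Rpusd3 and the chaperone escort Dnlz. Their knockout means ran from 0.923 CPM for Dnlz to 17.8 CPM for Mtx2. Nt5m was at 0 in all control libraries and had 90, 95, 11 and 55 counts in knockout, at least 75.5-fold higher than 3 counts over the control group. It overlaps Cops3, which was itself called higher, and without strand the reads of overlapping stretches cannot be told apart. Acsm4, known from the olfactory epithelium, had 89, 76, 30 and 16 counts against a single control count. Pycr1 had 44, 23, 82 and 22 counts and 3 in control, with a ratio of 51.4 (interval 17.3 to 252).

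The largest group, with 15 members, covered protein modification, folding, traffic and the lysosome. Fbxl21, an F-box protein linked to circadian cryptochrome turnover, led it with 240, 124, 54 and 58 counts against 1, 1, 4 and 0 in control. Zdhhc4 and Zdhhc16 encode palmitoyltransferases. Zdhhc4 had 39, 93, 83 and 75 counts with 1 control count, so that replicate 1 lay below the other knockout oocytes. Its first bases overlap those of the antisense member 0610040B10Rik, which starts there on the opposite strand and had 28, 35, 12 and 25 counts against 0, 0, 8 and 0. Kctd21, an adaptor of cullin ligases, was at 0 in control and had 85, 113, 25 and 39 counts in knockout. That was 78.8-fold the level of 3 counts over the control group. Sumf2 of the endoplasmic reticulum, the lysosomal mannosidase Man2b1, the peptidase Cpq, the co-chaperone Dnajb12, the peroxisome gene Pex11g, the GPI anchoring gene Gpaa1, Bloc1s2, Sharpin and Tbc1d12 completed the group with the dynactin genes.

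Dynactin, the activator of the dynein motor, was represented by Dctn1 and Actr1b. Dctn1, its largest subunit, had 36, 54, 67 and 52 counts in knockout and 0, 4, 1 and 2 in control, and Actr1b, the minor isoform of its actin-like filament, had 25, 99, 17 and 49 against 0, 1, 6 and 0. Among the other subunits, which did not enter the rule, Dctn2 (log2 fold change 3.06 ± 0.76 SE, edgeR adjusted p = 0.0124), Dctn3 (1.60 ± 0.33, adjusted p = 0.00479), Dctn5 (1.54 ± 0.28, adjusted p = 0.00268) and Capzb (1.63 ± 0.54, adjusted p = 0.0447) were higher in knockout. Capza2 was lower (-0.60 ± 0.16, adjusted p = 0.0164). The other 5 were not called: Actr1a, the major isoform (0.07 ± 0.23, adjusted p = 0.859), Dctn4 (-0.51 ± 0.24), Dctn6 (-0.49 ± 0.31), Actr10 (0.12 ± 0.26) and Capza1 (0.10 ± 0.31). Over 11 complexes that contain a member, 43 partner genes were no members, and 36 of these were tested. Of these 10 were called higher, 1 lower and 25 were not called, beside 13.6% higher and 12.2% lower over all genes tested, with a median log2 fold change of 0.51 beside 0.10 for all genes tested. The complexes were listed after the members were known.

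Of the RNA processing and ribosome assembly genes, Lsm4, a subunit of the ring that binds U6 RNA, had 138, 112, 78 and 59 counts in knockout and 1, 0, 3 and 1 in control, a ratio of 69.9 (interval 29.7 to 216). The subunit genes Lsm2 (log2 fold change 1.34 ± 0.28 SE), Lsm3 (1.69 ± 0.34) and Lsm6 (1.76 ± 0.52) were called higher by edgeR, with adjusted p = 0.00504, 0.00446 and 0.0272, and Lsm5 and Lsm8 were not called. Nop9, a nucleolar RNA-binding protein, had 107, 134, 44 and 75 counts against 0, 3, 4 and 0. Bop1 and Mdn1 act in the assembly of the large ribosomal subunit and lay lower, at 1.85 and 1.50 CPM in knockout. For Bop1, the partner genes Pes1 (-0.18 ± 0.29) and Wdr12 (-0.30 ± 0.35) were not called. For Pmpca, the partner gene Pmpcb was higher (2.88 ± 0.81, edgeR adjusted p = 0.0222), and for Gpaa1 the partner gene Pigs was higher (2.00 ± 0.50, adjusted p = 0.0132), while Pigk, Pigt and Pigu were not called.

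Receptors, ligands and other secreted or surface proteins were 14 members. Tnfsf10, the death ligand TRAIL, had 94, 132, 62 and 22 counts in knockout and 0, 3, 1 and 2 in control. G-protein-coupled receptors of peptides and adenosine were represented by Uts2r (urotensin; 52, 44, 106 and 75 counts), Agtr1a (angiotensin; 71, 60, 14 and 116) and Adora2b (adenosine; 75, 73, 14 and 92). Adora2b was at 0 in all control libraries, and Uts2r and Agtr1a had 7 control counts each, those of Uts2r all in replicate 2. Agtr1a and Adora2b were lowest in knockout replicate 3, in which Uts2r was highest. Wif1, a secreted inhibitor of Wnt proteins, had 27, 50, 14 and 23 counts and none in control. That was 34.3-fold the level of 3 counts over the control group. Tgfa, a ligand of the epidermal growth factor receptor, had 35, 20, 21 and 35 against 0, 1, 1 and 3. The remaining genes of the group were Cd27, Nmu, Proc, Paqr8, Prtg, Lgi1, Msr1 and Csmd1.

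Several of these surface and secreted proteins belong to single organs or cell types. Cd27, a costimulatory receptor of T and B cells, had 75, 65, 50 and 18 counts in knockout and 0, 0, 9 and 0 in control. Its control counts came from 1 library, as those of Uts2r did. Msr1, a scavenger receptor of macrophages, had 45, 33, 12 and 31 counts in knockout and none in control. Proc, the anticoagulant protein C made by the liver, had 31, 36, 75 and 14 counts in knockout and none in control. Both were undetected in all control oocytes, with bounds against 3 counts over the control group of 36.4-fold for Msr1 and 46.9-fold for Proc. The macrophage marker Cd68, given above, was higher in knockout as well, while Ptprc and Lyz2 were at 0 in all libraries; the part of other cells in the counts of Msr1 was not tested. Nmu, the neuropeptide neuromedin U, had 43, 70, 34 and 29 counts in knockout and 1, 0, 0 and 4 in control. Lgi1, a secreted protein of synapses linked to epilepsy, had 23, 24, 48 and 28 counts in knockout and 1, 0, 0 and 0 in control. Csmd1, a large membrane protein of the brain, had 15, 37, 13 and 13 counts in knockout and 3, 1, 0 and 0 in control. In these 6 genes the highest knockout count was no more than 75, and the order of the oocytes differed from gene to gene.

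Adhesion, matrix and epithelial surface genes were 6. Dsc3, a desmosomal cadherin of stratified epithelium, had 27, 202, 175 and 68 counts in knockout against 0, 4, 0 and 5. Colq, the collagen tail that anchors acetylcholinesterase at the neuromuscular junction, had 146, 143, 49 and 78 counts against 0, 1, 2 and 0, a ratio of 125 (interval 42.5 to 609). Matn1, a matrix protein of cartilage, had 43, 64, 52 and 12 counts and 1 in control. S100a11, Mfap5 and Upk1a were lower, at 1.94, 1.50 and 1.37 CPM in knockout, and 37.8% of the 75-base stretches of S100a11 also occur in other genes.

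Enzymes of redox balance, detoxification and small-molecule metabolism were 11. Amy1, the amylase of salivary gland and liver, was at 0 in control and had 95, 118, 44 and 62 counts in knockout. Amy1 thus reached 96.0-fold the level of 3 counts over the control group. Its annotated span overlaps Rnpc3, which was called higher, and the files do not separate reads by strand. Prdx4, a peroxiredoxin of the endoplasmic reticulum, had 70, 50, 17 and 34 counts and 1 in control. Pctp, the phosphatidylcholine transfer protein, had 31, 76, 46 and 43 counts and none in control. The glutathione transferases Gsto1 (30, 10, 24 and 47 counts) and Gsta2 (18, 29, 13 and 24) were at 0 in control as well. Gsta2 lies 25493 bp from its near copy Gm10639, also a member, and 46.9% of its 75-base stretches are shared, so the split of reads between them is uncertain.

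Genes of chromosomes, DNA repair and cell death were Ccnb1ip1, Dscc1, Ercc1, Dffb and Pdcd5. Ercc1, part of the nuclease of nucleotide excision repair, had 14, 22, 26 and 40 counts in knockout and 0, 0, 0 and 6 in control. Dscc1, a subunit of the clamp loader for sister chromatid cohesion, had 13, 51, 47 and 54 counts in knockout and 1, 0, 0 and 1 in control. Ccnb1ip1, known for its role in meiotic crossing over, had 112, 21, 25 and 100 counts and none in control. That was 77.6-fold the level of 3 counts over the control group. Genes otherwise typical of sperm were 2 members, Zpbp2 of the acrosome (28, 69, 69 and 34 counts against 0, 0, 1 and 1) and the sperm lactate dehydrogenase Ldhc (45, 15, 20 and 31 against none), and the radial spoke gene Rsph3a belongs to the axoneme, with 66.4% of its 75-base stretches shared with its copy Rsph3b. Among 6 signalling adaptors and regulators, Nck2, an adaptor between receptors and actin, had 132, 242, 37 and 117 counts and 2 in control, a ratio of 238 (interval 65.6 to 1973). Ppp2r3a, a regulatory subunit of protein phosphatase 2A, had 26, 49, 86 and 102 counts against 0, 3, 4 and 0. Arhgap24, a regulator of Rac, varied most for its mean, with 21, 121, 13 and 29 counts and a coefficient of variation of 102%.

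**Figure D4:**
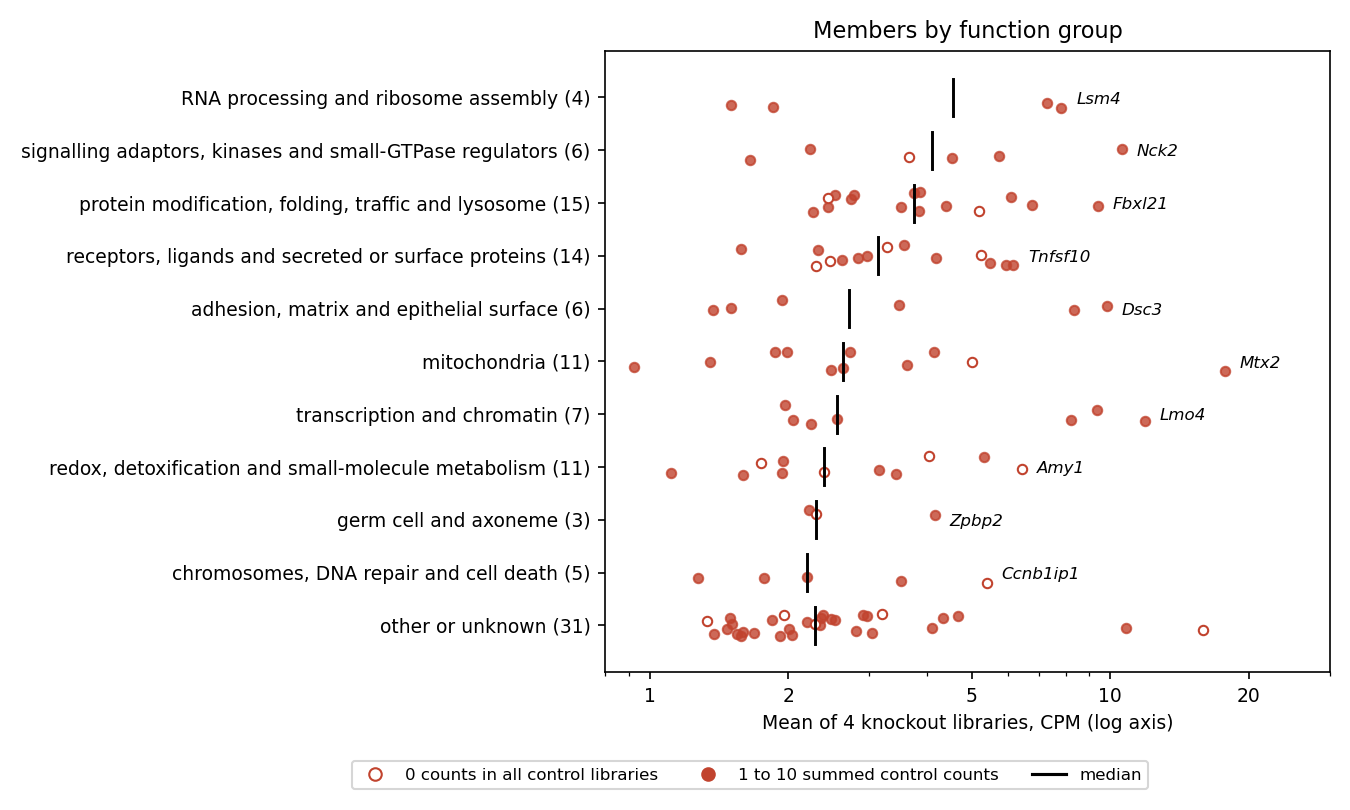
Each point is a member, placed by its mean CPM over the 4 knockout libraries (horizontal, log axis) and by function group (number of members in brackets); open points were at 0 in all control libraries, black ticks are group medians, and the highest member of each named group is labelled. Group medians ran from 2.20 to 4.56 CPM.

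By normal tissue, 21 members were genes for which a main tissue could be given, and these were spread over several organs. There were 4 of brain and nerve (Nmu, Lgi1, Camkv and Csmd1), 4 of liver, salivary gland and kidney (Amy1, Proc, Acy3 and Gsta2), 3 of skin, bladder and other epithelia (Dsc3, Grhl3 and Upk1a), 3 of skeleton, muscle and connective tissue (Colq, Matn1 and Mfap5), 3 of blood and immune cells (Cd27, Msr1 and Padi4), 2 of testis, and Hoxd13 and Acsm4. The 26 gene lists of tissues and functions that were also compared, written from general knowledge, held 15 of the 113. No member was among the near-silent genes of the lists for neurons and synapses (49 genes), skeletal and heart muscle (52), liver (60), kidney, gut, pancreas and lung (60), epidermis and glands (49), blood and immune cells (79), imprinted genes (35) or pluripotent cells (42), nor among 1579 near-silent olfactory and vomeronasal receptor genes. Lists with more than 1 member were detoxification and metal binding (3 of 37 near-silent genes), testis and spermatogenesis (2 of 87), secreted signals and their receptors (2 of 115) and developmental transcription factors (2 of 157). Another 6 lists held 1 member each: Matn1 among 36 genes of smooth muscle, stroma and matrix, Cited1 among 37 of placenta and yolk sac, Rsph3a among 22 of cilia, Pycr1 among 37 metabolic enzymes, Lsm4 among 7 of the transcription, splicing and translation machinery, and Agtr1a among 109 channels and G-protein-coupled receptors. Over all 24373 near-silent genes, counted in the same way, 0.464% were members. Of these genes 18743 had 0 counts in all 8 libraries, and of the 5630 with a count in any library 2.01% were members. At such shares a short list may well hold no member. Nothing is therefore read from the lists without a member or from the small counts of the others.

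Of the 113 members, 31 were placed in no function group. The highest was Fam124a, with 305, 239, 41 and 204 counts in knockout and none in control. Its level was 237-fold that of 3 counts over the control group. Gm15691, an antisense RNA gene on chromosome 12, had 162, 191, 102 and 81 counts against 2, 5, 3 and 0 and the highest level per length of all members, 12.8 RPKM. Fign, a fidgetin of the microtubule-severing family, had 93, 59, 65 and 15 counts against 2. By biotype 96 members were protein-coding, 11 were pseudogenes, 3 antisense, 2 long intergenic RNAs and 1 a processed transcript (GENCODE M21).

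All 11 pseudogene members matched a transcript of another gene over at least 75 bases at 95% identity or more, and for 8 of them the most counted such gene was itself called higher by edgeR. Gm16089, Gm2962 and Gm5457 are copies of Uqcrb, a complex III subunit, at 97.9%, 98.2% and 97.6% identity. Uqcrb had 220, 366, 305 and 240 counts in knockout and 39, 49, 54 and 52 in control, and each copy had 14 to 36 counts per knockout library and 0 to 6 per control library. The first 75 bases of the open reading frame of Uqcrb, the length of a read, are shown beside the same stretch of each copy (GENCODE M21, 5′ to 3′), with bases that differ from Uqcrb in capitals.
Uqcrb, gene at chr13:66900617-66905378, minus strand: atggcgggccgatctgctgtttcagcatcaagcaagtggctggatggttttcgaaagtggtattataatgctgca
Gm16089, gene at chr5:137615627-137615962, plus strand: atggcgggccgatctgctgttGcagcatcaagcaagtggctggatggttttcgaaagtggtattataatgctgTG
Gm2962, gene at chr1:170925309-170925644, minus strand: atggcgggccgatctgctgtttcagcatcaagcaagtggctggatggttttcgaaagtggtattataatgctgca
Gm5457, gene at chr14:12867553-12867888, plus strand: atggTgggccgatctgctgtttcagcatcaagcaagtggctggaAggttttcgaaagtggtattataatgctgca
The stretch of Gm2962 had no base that differs, that of Gm5457 had 2 and that of Gm16089 had 3. Gm13771 matched Cox7b (with no 75-base stretch in common), Gm6304 matched Mrpl27, Gm6274 matched Rpl7, Gm13436 matched Rpl18-ps2 and Crry-ps matched Cr1l, all called higher. Counts of these 8 pseudogenes are therefore uncertain, and whether their reads came from the copy or from the matched gene was not tested. Counts of other members that share 75-base stretches with another gene are uncertain as well, whatever the call of that gene. Among these are Gm10275, Bloc1s2, Mrs2, Gm10639 and Gm5622, and the source of their reads was not tested either. Over all members, 90 had no 75-base stretch in common with a gene elsewhere, 7 shared under 10% of stretches, 12 shared 10% to 50% and 4 shared more (Gm13436, Sdr39u1, Rsph3a and Gm10275).

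Promoter composition, which the rule did not use, was read from RefSeq promoters of 300 bases (250 before and 50 after the start), of which 83 of the 113 members had one. The comparison is given for protein-coding genes, where 77 of 96 members (80.2%) had a promoter. A promoter with at least 50% GC and an observed to expected CpG ratio of at least 0.6 was counted as CpG-rich. This held for 67.5% of coding members, for 73.7% of coding genes with 10 or more counts in all 8 libraries and for 75.1% of the other coding genes called higher, and the median CpG ratios were 0.751, 0.802 and 0.806. These shares were not tested against each other, and 19 of the 83 members had a CpG ratio under 0.3. For 8 members the promoter belonged to a start more than 1000 bp from the start of the gene as counted. Among these were Amy1, Dctn1, Gsta2 and 4930556L07Rik, all with a ratio under 0.3. Of the other coding genes near silent in control but with a count, 77.4% had a promoter, under the 80% needed, so a comparison with them is void; among those with a promoter 39.3% were CpG-rich. The set of all coding genes, at 78.0%, is void for the same reason, and its shares below only describe the promoters in the table. On either strand, the TATA box letters TATAAA occurred in 10.4% of the promoters of coding members, in 6.38% of those of coding genes with 10 or more counts in all 8 libraries and in 12.7% of all 16490 coding promoters. GGGCGG occurred in 66.2%, 66.3% and 48.7% of these promoters, and CCAAT in 27.3%, 40.2% and 39.0%.

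**Figure D5:**
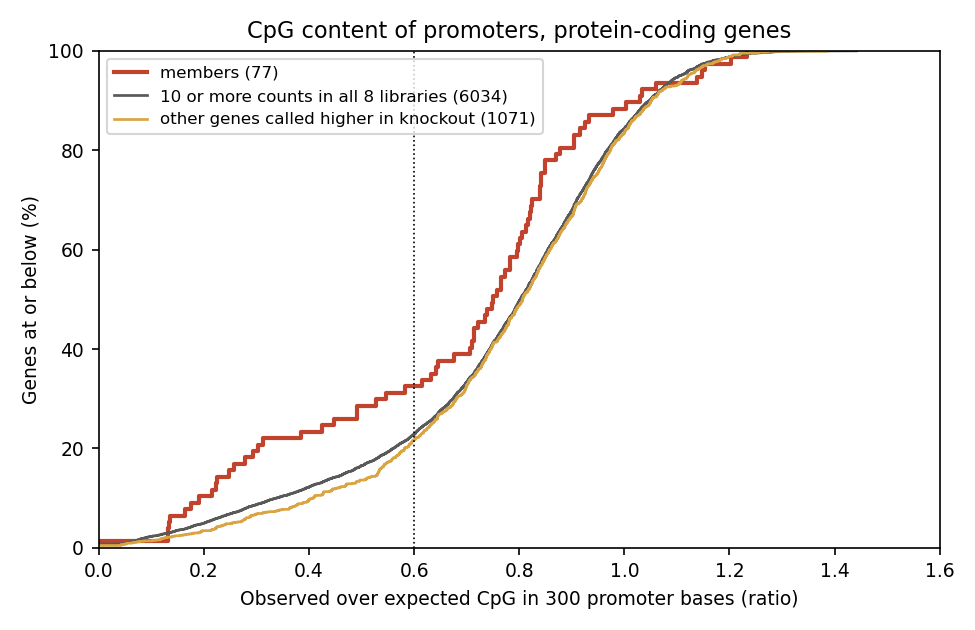
Lines give the share of protein-coding genes (vertical, percent) whose promoter has an observed to expected CpG ratio at or below the value on the horizontal axis; the dotted line marks 0.6. The members (red, 77 genes) lie to the left of genes with 10 or more counts in all 8 libraries (grey, 6034) and of the other genes called higher (yellow, 1071) over most of the range, with medians of 0.751, 0.802 and 0.806.

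The members were found on all autosomes and on the X chromosome, which held 4 of them. Within 100 kb of another member lay 10 members (8.85%), against 2.97% of near-silent genes with a count and 2.85% of genes with 10 or more counts in all 8 libraries. The neighbours were Zdhhc4 with 0610040B10Rik, Gpaa1 with Sharpin, Gm10639 with Gsta2, Dnlz with Pmpca, and Mdp1 with Nop9. These include the pair with a divergent start and the near copies Gm10639 and Gsta2 named above. Besides Zdhhc4 and 0610040B10Rik, whose first bases overlap, overlap with another expressed gene was found for 8 members. Such a gene was called higher for 2 of them and lower for 1. Cd27 overlaps Vamp1, which was not called. Within 5 kb downstream of an expressed gene on the same strand began 5 members. That gene was called higher for Mdp1 (Nedd8), Upk1a (Cox6b1) and Man2b1 (Wdr83os) and lower for Mdn1 (Casp8ap2). Within 1 kb of the start of an expressed gene on the opposite strand began 12 members. The gene there was called higher for 3 and lower for 1. The part of these genes in the members' counts was not tested. The median length of the members' exons was 2467 bp, against 3822 bp for genes with 10 or more counts in all 8 libraries.

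All knockout oocytes held all members, as the rule demands, and differed in their levels. The coefficient of variation over the 4 oocytes had a median of 43.0% and ran from 6.96% for Prdx6b to 102% for Arhgap24. Its median was 37.1% for 4248 other genes with a level between those of the lowest and the highest member. These genes are not matched to the members in level. Of all 9774 genes with 10 or more counts in every knockout library, 5.55% lay under the median member and 44.6% under the highest. The ratio of the highest to the lowest knockout CPM had a median of 2.58. Replicate 2 gave the highest value for 42 members, replicate 1 for 24, replicate 3 for 27 and replicate 4 for 20. Of the 25 most abundant members 13 were lowest in replicate 3, among them Mtx2, Fam124a, Lmo4, Nck2 and Hoxd13. These 5 genes had 8.64, 3.69, 1.80, 3.33 and 1.71 CPM there and at least 6.06 CPM in each other knockout library, while Grhl3 (22.6 CPM), Dsc3 (15.7 CPM) and Uts2r (9.54 CPM) were highest in replicate 3.

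At the limits of the rule, members and excluded genes had nearly the same counts. Just inside by the smallest knockout count of 10 were Tbc1d12, Gsto1, Plekhs1 and Nek8, and just outside with 9 were Crtac1, Kcnab2, Ppp1r37 and Rec114. Just inside by 10 summed control counts were Gm15691, Hoxd13, Cited1 and Gm5457, and just outside with 11 were Gm15310, the histone deacetylase gene Hdac1, the autophagy gene Map1lc3a and Ncln. Hdac1, for example, had 107, 30, 70 and 79 counts in knockout and 0, 8, 0 and 3 in control. A smallest knockout count of at least 20 was reached by 40 members.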

How the data were processed

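Counts of 8 single-oocyte libraries, 4 per genotype label, were used as the authors deposited them. The submitters' processing notes name GSNAP, featureCounts 1.4.4, DESeq2 1.3.79 and mm10. Per the file headers, reads were assigned to genes of Ensembl 69 without strand, from a mapping quality of 1. The authors' deposited table adds log2 fold changes, a score (standard error and Wald statistic), p-values, normalized signal and RPKM. It served to count the members it lists and to name genes absent from the reference name table. RPKM values printed here were computed from the deposited counts and gene lengths with TMM-scaled totals. No column belonged to other samples (0).

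Members, gene lists, function groups and complexes were chosen with earlier results of these data known. Named genes are the 25 members of highest knockout mean, the highest members of each list and family, those beside each limit and, among the 40 highest, those at 0 in control. Other genes were named for their known role after their values were seen. Testing used edgeR 4.0.16 (R 4.3.3) with TMM, filterByExpr, genotype as the only term and Benjamini-Hochberg adjustment over all 11066 genes; the script was tested on simulated data. DESeq2 1.42.0 and voom with limma 3.58.1 were alternatives, as were other limits, scalings and filters, thinning, a replicate block and leaving out each library. Ratios of pooled counts carry exact 95% binomial intervals, and bounds use 3 counts over the control group (0.0687 CPM). Same-numbered libraries did not deviate together (r -0.117 to -0.021), so the numbers do not pair them. No library pair agreed within sampling noise (chi-square per degree of freedom at least 34.9). Copies were sought with megablast among GENCODE M21 transcripts, and promoters were matched by symbol, chromosome and strand.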

Additional observations from a re-analysis of the deposited data

Results flagged for a closer look

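In 6 of 67 groups of 4 libraries (8.96%), 5 of them control groups, 1 library lay far from the other 3. Chance flags about 1 in 20 groups of freely varying values, and only groups with a highest count over 3 were tested. That rate does not apply to the 5 control groups: the rule limits their summed counts to 10, and with the other 3 libraries at 0 any such count is flagged. Mtx2 had 0.578 CPM (7 counts) in control replicate 3 and 0 in the other controls. Hoxd13 had 0.800 CPM (10 counts) in control replicate 2 and Uts2r 0.560 CPM (7 counts) in the same library, with 0 in the others. Dnajb12 was high in control replicate 3 at 0.495 CPM, and 4930519G04Rik in control replicate 1 at 0.441 CPM. Zdhhc4 was low in knockout replicate 1, at 2.93 CPM, and between 6.99 and 7.47 CPM in the other knockout libraries.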

How the results depend on the processing

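The number of members follows its limits. It was 242 with at least 5 counts per knockout library and 40 with at least 20, and it was 217, 63 and 19 with at most 20, 5 and 0 summed control counts. With the groups exchanged these limits gave 10 and 1, and 13, 1 and 0 genes, instead of 4. Leaving out 1 library gave 136 to 202 members and 6 to 11 genes of the exchanged kind. Genes called higher were 2382 with library totals only and 747 at an adjusted p under 0.01, and 1012 to 1597 with 1 library left out. Genes called lower were 504 and 644 under these settings, and 837 (without knockout replicate 2) to 1244 (without control replicate 4) with 1 library left out. Library totals put 82.5% of calls on the higher side against 52.7% with TMM, and moved the median log2 fold change of all genes from 0.10 to 0.49. With the replicate block, although the numbers do not pair the libraries, 1090 genes were called higher, 861 lower, and 72 members. The members' median log2 fold change, 4.98, was 5.33 with library totals, 5.45 with the replicate block, 5.10 with DESeq2 and 4.93 to 5.24 with 1 library left out. Called members numbered 66 to 107 over all settings. Of 528 fits of 48 named genes under the scaling, block and left-out settings, 496 kept their side of the threshold, 32 lost the call and none reversed. Depth limits the control values: 3 counts are 0.240 to 0.331 CPM in a control library, so 0 counts do not show absence.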
